A study of Homo sapiens with 12 samples.

Results

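The comparison set 3 libraries of OCI-AML3 cells treated with AC220 against 3 libraries of the same line given DMSO, over all genes counted. The members were chosen by cell line and treatment alone, and they are 6 of the 12 libraries of the study. OCI-AML3 is an established line of human acute myeloid leukaemia cells, known for a mutant NPM1 gene and for a FLT3 gene without the internal tandem duplication (ITD). AC220 (quizartinib) is a kinase inhibitor of FLT3, given at 5 nM for 24 h, and DMSO is its solvent and served as the control. The other 6 libraries came from MV4-11, a line known for a FLT3-ITD, under the same 2 treatments with 3 libraries each. Each FLT3 state is represented by 1 line, so the state of FLT3 and the other differences between the lines cannot be told apart. RNA was read as 3′ mRNA libraries, in which a molecule gives a read near its 3′ end, and the values were raw counts per gene. A level is given below in CPM, the count scaled to the size of its library and by a normalisation factor.

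FLT3 is a receptor tyrosine kinase of early blood cells that is switched on by its ligand. Its ITD form signals without ligand, through STAT5, the RAS-ERK cascade and PI3K-AKT, and drives growth and the synthesis of serine and other amino acids in cells that depend on it. A line without the ITD is the usual control for effects of an inhibitor that do not come from the mutant kinase.

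The 6 libraries held between 10877198 and 14458640 counts, and 12392 genes passed the filter on low counts. In CPM without the normalisation factor, the markers of a myeloid leukaemia cell summed to between 1023 and 1028 CPM under DMSO and between 1018 and 1062 CPM under AC220, with KIT at 0 and the other 9 of 10 detected. B lymphoid markers summed to at most 3.81 CPM, T and NK lymphoid markers to at most 1.46 CPM, erythroid and megakaryocytic markers to at most 0.622 CPM and epithelial markers to at most 0.415 CPM over the 6 libraries. Stromal and endothelial markers summed to between 3.24 and 5.72 CPM under DMSO and between 5.52 and 8.79 CPM under AC220. Nearly all of this sum was 1 gene, COL1A2, with 450 counts over the 6 libraries. COL1A1 had 5 counts, DCN had 1, and COL3A1, VWF and CDH5 had none. The part of stromal or endothelial cells in the results was not tested. KIT is a receptor of immature blood cells. MS4A1, CD3E, HBB, EPCAM and VWF, each a defining marker of another cell type, had no count in any of the 6 libraries. Other members of these classes were read, such as EBF1 (B lymphoid, mean 2.92 CPM) and NKG7 (T and NK lymphoid, mean 0.982 CPM). Of the detected myeloid markers ITGAM and MPO were also low, at means of 0.404 and 2.64 CPM.

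The libraries did not form 2 tight groups. The first principal component held 45.9% of the variance, and the DMSO libraries scored -19.4, -18.2 and -2.65 on it, against 2.64, 11.7 and 26.0 for the AC220 libraries. DMSO replicate 3 therefore lay nearer to AC220 replicate 1 than to the other DMSO libraries. The GC content of the transcripts moved with the same axis. Spearman's rho of a gene's deviation with its GC content, over 9174 genes of at least 5 CPM, was 0.293, 0.252 and 0.0104 in the DMSO libraries and -0.0594, -0.117 and -0.333 in the AC220 libraries. These correlations are across genes, which are not independent replicates. Genes called higher after AC220 had a median GC content of 45.1%, against 54.5% for genes called lower and 48.5% for all tested genes. The part of GC content in the response was not tested beyond a correction of each library for it, whose values are given where they end a call.

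**Figure D1:**
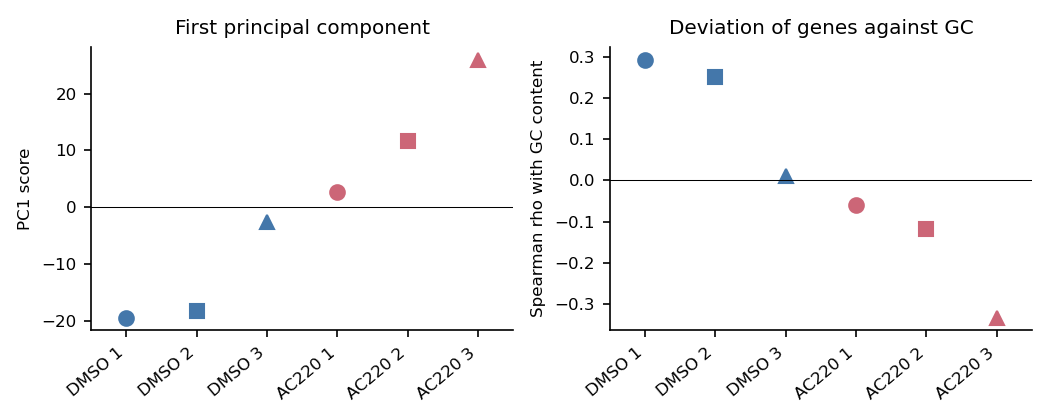
The score of each OCI-AML3 library on the first principal component (left, no unit) and the Spearman rho of gene deviations with GC content (right, no unit), with DMSO libraries in blue, AC220 libraries in red, and circle, square and triangle for replicates 1, 2 and 3, whose numbers carry no order. DMSO replicate 3 (-2.65) and AC220 replicate 1 (2.64) sit side by side on the first component, and rho runs from 0.293 to -0.333.

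FLT3 itself was read at 10.2, 13.4 and 11.9 CPM under DMSO and at 18.7, 23.5 and 27.1 CPM under AC220. All 3 treated libraries were above all 3 controls. The log2 fold change of FLT3 was 0.97 (95% interval 0.22 to 1.72), and the p of edgeR's quasi-likelihood test, adjusted over all genes after Benjamini and Hochberg, was 0.135 when the spread was shared with MV4-11 and 0.00147 when the 6 OCI-AML3 libraries were fitted alone. An inhibitor of the protein leaves its transcript in place, so this level is no check of the labels.

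AC220 was followed by a small set of modest differences in OCI-AML3, mostly towards higher levels. Of the 12392 genes tested, 489 passed an adjusted p of 0.05, which is 3.95%, with 426 higher (3.44%) and 63 lower (0.508%) after AC220. The median size of a called log2 fold change was 0.46, and 400 of the called genes were more than 25% higher or 20% lower, while 27 differed by more than 2-fold. In 2960 genes (23.9%) the 3 AC220 libraries lay all above or all below the 3 DMSO libraries, above in 1756 (14.2%) and below in 1204 (9.72%). Scaling by median-ratio size factors gave the same total of 489 with 363 higher and 126 lower, and moved the median log2 fold change of all genes from -0.00 to -0.03. A fit with the replicate number as a block called 764 genes, 642 of them higher.

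Most of these calls came and went with single libraries. Without DMSO replicate 1 the test called 13 genes, without DMSO replicate 2 it called 15, and without AC220 replicate 3 it called 22. Without AC220 replicate 2 it called 116. Leaving out a library near the middle did the opposite, with 944 calls without AC220 replicate 1 and 998 without DMSO replicate 3. Those last fits kept 95.5% and 94.9% of the 489 genes, whereas the fits without DMSO replicate 1 and DMSO replicate 2 kept 2.66% and 2.86%. MV4-11 libraries set part of the shared spread, and leaving out MV4-11 AC220 replicate 1 gave 1136 calls. The labels do not say whether replicates were separate cultures, so these p-values measure the spread between libraries, which may be technical.

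**Figure D2:**
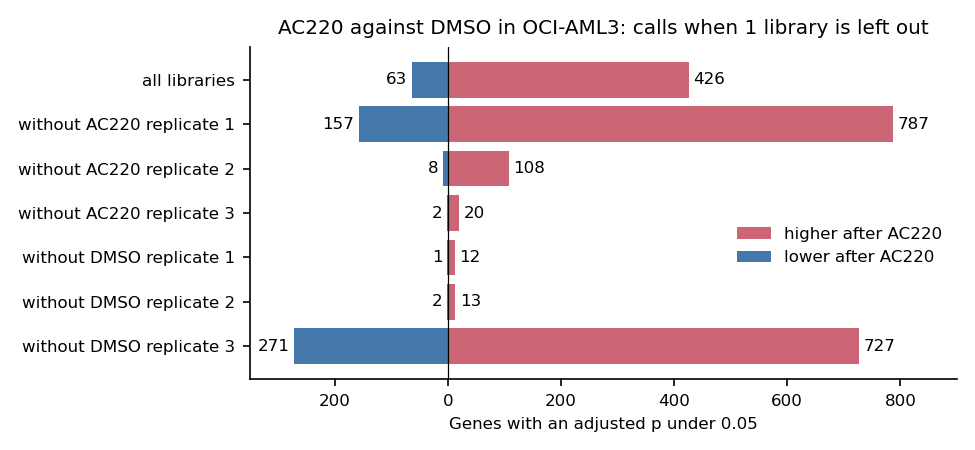
Number of genes with an adjusted p under 0.05 in OCI-AML3 (horizontal axis), higher after AC220 to the right in red and lower to the left in blue, for the fit of all libraries and for each fit without 1 library. The total is 489 with all libraries, between 13 and 116 without AC220 replicate 2, AC220 replicate 3, DMSO replicate 1 or DMSO replicate 2, and 944 and 998 without the remaining libraries.

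In all, 9 calls did not depend on any single OCI-AML3 library. SNX1, ZNF706, NUP153, AAMP, COX17, ARNT, MTLN and TNFAIP2 were higher and HIST1H4C was lower in the full fit and in all 6 leave-one-out fits, which is 0.0726% of the tested genes. At the other end, 4 of the 489 genes were called in no leave-one-out fit, 34 in 1, 339 in 2 and 89 in 3. Among the risers, COX17 and MTLN encode proteins of the mitochondrion.

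HIST1H4C encodes histone H4, which packs newly made DNA, and belongs to the histone genes that are expressed with DNA replication. It was read at 859, 810 and 709 CPM under DMSO and at 602, 538 and 496 CPM under AC220. Every treated library was below every control. The mean fell from 793 ± 76.5 to 545 ± 53.4 CPM (SD, n = 3), a log2 fold change of -0.54 (95% interval -0.69 to -0.39; edgeR's quasi-likelihood test, adjusted p = 0.00071). Mature messages of this histone class end in a stem-loop in place of a poly(A) tail, and the library kit primes on poly(A), so the value reads the polyadenylated part of the transcripts.

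COX17 carries copper to cytochrome c oxidase, the last complex of the respiratory chain. It was read at 83.9, 95.5 and 106 CPM under DMSO and at 122, 149 and 136 CPM under AC220. MTLN encodes mitoregulin, a small protein of the inner mitochondrial membrane, and was read at 12.9, 13.9 and 16.8 CPM under DMSO and at 24.0, 28.9 and 34.7 CPM under AC220. MTLN had the widest change of the 9 genes, a log2 fold change of 1.01 (95% interval 0.68 to 1.33), against 0.51 (0.34 to 0.68) for COX17. The groups did not overlap for either gene, although the lowest treated and highest control library of COX17 were 122 and 106 CPM.

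ARNT is the common partner of the hypoxia-inducible factors and of the aryl hydrocarbon receptor. It was read at 27.7, 29.3 and 33.4 CPM under DMSO and at 42.1, 51.1 and 47.9 CPM under AC220 (log2 fold change 0.64, 95% interval 0.43 to 0.86). NUP153 is a nucleoporin of the nuclear basket, the inner face of the nuclear pore, and rose from 17.6, 16.6 and 18.7 CPM to 26.2, 29.9 and 30.1 CPM (log2 fold change 0.71, 95% interval 0.48 to 0.93). The NUP153 values were tight within DMSO, with an SD of 1.08 CPM, and the treated libraries stood clear of them. SNX1 is a sorting nexin that bends endosome membranes for retrograde transport. It was read at 44.6, 45.4 and 54.8 CPM under DMSO and at 62.0, 75.5 and 74.2 CPM under AC220 (log2 fold change 0.55, 95% interval 0.36 to 0.73).

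TNFAIP2 was first known as a gene that tumour necrosis factor induces, and the protein helps to form thin membrane bridges between cells. It was read at 17.3, 17.2 and 21.0 CPM under DMSO and at 26.8, 27.7 and 34.4 CPM under AC220 (log2 fold change 0.68, 95% interval 0.45 to 0.91). AAMP, a WD-repeat protein, was read at 57.8, 59.6 and 63.1 CPM under DMSO and at 78.7, 84.8 and 87.3 CPM under AC220 (log2 fold change 0.47, 95% interval 0.33 to 0.62). ZNF706 encodes a small zinc finger protein and was read at 66.4, 65.3 and 78.9 CPM under DMSO and at 95.4, 112 and 116 CPM under AC220 (log2 fold change 0.62, 95% interval 0.42 to 0.82). In each of these genes DMSO replicate 3 was the highest control and AC220 replicate 1 the lowest treated library, and a gap remained between them. The 8 risers shared an adjusted p of 0.00245, and the largest in any of the 6 leave-one-out fits was 0.0444, just inside the threshold.

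**Figure D3:**
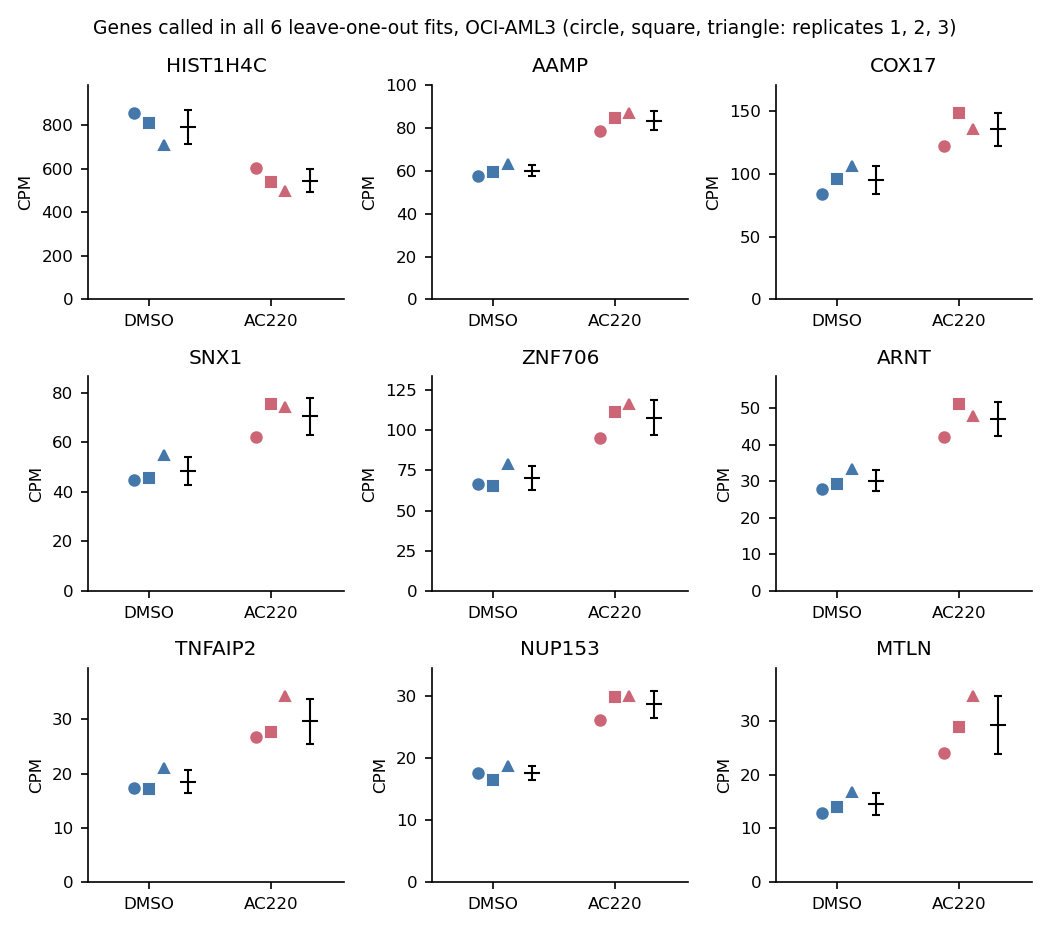
Level (CPM, vertical axis from 0) of the 9 genes called in the full fit and all 6 leave-one-out fits, 1 panel a gene, with DMSO libraries in blue, AC220 libraries in red, circle, square and triangle for replicates 1, 2 and 3, and the group mean with its SD (n = 3) in black. The groups do not overlap in any panel; HIST1H4C lies between 496 and 602 CPM under AC220 against 709 to 859 CPM under DMSO.

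Other choices of processing kept the direction of these 9 genes and changed how many passed every fit. With median-ratio size factors and their own leave-one-out fits 1 gene passed, HIST1H4C. With the GC correction 5 genes passed, which were HIST1H4C, ZNF706, AAMP, NUP153 and the non-coding LINC00205. When both libraries numbered 2 were left out together no gene of the genome was called by edgeR (0 of 12577, 1564 at an unadjusted p under 0.05), and the adjusted p of the 9 genes lay between 0.174 and 0.216.

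The promoters of the 9 stable genes were searched for short motifs. These genes were selected for a call in every leave-one-out fit, so their shared behaviour there is no result. Shared control was not tested. Sequences from RefSeq (GRCh38.p14), 250 bases before to 50 after the start of the gene, were matched for 6 of the 9 genes, SNX1, NUP153, COX17, ARNT, MTLN and TNFAIP2. The motif CCAAT was present on either strand in 3 of the 6, which are printed 5′ to 3′ on the strand of the gene with the matches in capitals. In COX17 the capitals mark, in order, an ETS-type match (CCGGAAG read on the other strand) and a CCAAT match read on the other strand. In ARNT the CCAAT match is on the other strand and in MTLN on the strand of the gene.
COX17 (chr3:119676954-119677253, minus strand): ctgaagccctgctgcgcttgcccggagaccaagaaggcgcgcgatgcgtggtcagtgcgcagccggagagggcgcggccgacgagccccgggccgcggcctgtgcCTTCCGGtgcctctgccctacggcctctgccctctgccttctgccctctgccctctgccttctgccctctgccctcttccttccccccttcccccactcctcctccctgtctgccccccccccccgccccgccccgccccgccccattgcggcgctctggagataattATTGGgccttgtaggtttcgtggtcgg
ARNT (chr1:150876550-150876849, minus strand): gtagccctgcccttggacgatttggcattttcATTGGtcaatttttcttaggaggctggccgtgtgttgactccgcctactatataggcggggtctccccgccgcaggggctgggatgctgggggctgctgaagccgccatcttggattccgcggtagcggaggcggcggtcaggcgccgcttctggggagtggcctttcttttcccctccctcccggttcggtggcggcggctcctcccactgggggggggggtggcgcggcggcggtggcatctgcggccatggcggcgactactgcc
MTLN (chr2:110212498-110212797, minus strand): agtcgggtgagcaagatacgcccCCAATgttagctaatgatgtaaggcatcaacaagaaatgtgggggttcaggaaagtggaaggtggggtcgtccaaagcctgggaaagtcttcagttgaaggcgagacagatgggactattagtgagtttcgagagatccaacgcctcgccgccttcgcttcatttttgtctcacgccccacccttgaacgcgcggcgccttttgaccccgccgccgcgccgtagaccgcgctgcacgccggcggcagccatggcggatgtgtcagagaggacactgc

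CCAAT was found in 34.6% of all 35116 promoters of this length, so 3 of 6 is a description only. CCGGAAG was found in 10.3% of all promoters and in COX17 alone among the 6. Neither the TATA-type TATAAA (11.5% of all promoters) nor the E-box CACGTG (7.26%) is among the letters of these 6 windows.

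A further 14 genes passed 4 or 5 of the 6 leave-one-out fits, and they were named after their values were seen. The higher ones in 5 fits were UBE2T, RPAIN, CDCA7 and DNAAF5. UBE2T, the ubiquitin-conjugating enzyme of the Fanconi anaemia pathway, was read at 53.3, 49.0 and 70.7 CPM under DMSO and at 78.0, 101 and 96.0 CPM under AC220 (log2 fold change 0.67). RPAIN, which carries replication protein A into the nucleus, was read at 168, 157 and 177 CPM against 209, 216 and 219 CPM (log2 fold change 0.36). CDCA7, a target of MYC and E2F, was read at 52.6, 49.7 and 62.6 CPM against 71.6, 77.5 and 85.7 CPM (log2 fold change 0.51). The groups of these genes did not overlap, with UBE2T closest, at 70.7 CPM in the highest control and 78.0 CPM in the lowest treated library.

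Those in 4 fits were LASP1, ACTN4, S100A6, IRS2, SF3B4, FASTKD3, PTP4A3, LINC00205 and ST20-MTHFS, all higher, and MX1, lower. LASP1 and ACTN4 bind or crosslink actin filaments. ACTN4 was read at 288, 289 and 334 CPM under DMSO and at 373, 427 and 399 CPM under AC220, and LASP1 at 165, 171 and 184 CPM against 216, 231 and 226 CPM. ST20-MTHFS is a read-through transcript that shares sequence with its neighbours, and its level of 3.81, 2.66 and 2.96 CPM against 7.04, 8.33 and 9.42 CPM is uncertain for that reason.

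Transcripts that report FLT3 signalling through ERK, such as the phosphatase DUSP6 that ERK induces against itself, gave 2 higher calls among 18 tested. The share of all tested genes called higher was 3.44%. DUSP6 was read at 16.7, 15 and 19.3 CPM under DMSO and at 22.4, 23.9 and 28.0 CPM under AC220 (log2 fold change 0.54, adjusted p = 0.0105), and it passed 3 of the 6 leave-one-out fits. SPRED2, another inhibitor of the ERK cascade, was read at 3.96, 3.65 and 2.67 CPM against 4.78, 6.39 and 12.9 CPM, with AC220 replicate 3 far above the rest, and passed 1 of the 6. The adjusted p of SPRED2 was 0.0481, and it was 0.0671 with the block and 0.0557 after the GC correction. The early response factor EGR1 lay at 54.5, 56.1 and 52.4 CPM against 39.0, 62.5 and 37.1 CPM, with overlapping groups. The median log2 fold change of the list was 0.07, against -0.00 for all tested genes.

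MYC, the growth factor-driven transcription factor, was read at 16.2, 17.1 and 27.3 CPM under DMSO and at 33.8, 51.1 and 61.0 CPM under AC220. The groups did not overlap, but the spread was wide, and the log2 fold change of 1.27 had a 95% interval of 0.42 to 2.13 and an adjusted p of 0.0979, below the threshold with DESeq2 (0.0223). PIM1, a kinase induced by STAT5, was read at 2.18, 4.41 and 4.70 CPM against 5.5, 8.47 and 8.27 CPM, with an adjusted p of 0.238 in the shared fit and 0.0254 in OCI-AML3 alone. Of the 15 STAT5 and PIM targets tested none was called in the fit of all 12 libraries by edgeR or by DESeq2, and 5 had an unadjusted p under 0.05 in edgeR's test. MCL1, which protects from cell death, was read at 203, 215 and 215 CPM against 229, 250 and 258 CPM (log2 fold change 0.22, 95% interval 0.06 to 0.38), and like PIM1 it passed the threshold in OCI-AML3 alone (adjusted p = 0.0406).

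Serine synthesis runs from a glycolytic intermediate through PHGDH, PSAT1 and PSPH, and feeds the folate cycle that supplies carbon for nucleotides. Its 3 enzymes did not share a direction here. PHGDH, the entry enzyme, was read at 294, 303 and 253 CPM under DMSO and at 257, 278 and 240 CPM under AC220, with overlapping groups, and its interval of -0.28 to 0.01 on the log2 scale lay inside a bound of 20% lower to 25% higher, called the 25% bound below. PSAT1 was read at 488, 475 and 479 CPM against 528, 586 and 588 CPM (log2 fold change 0.24, adjusted p = 0.0304), and all treated libraries were above all controls. PSPH was read at 63.2, 69.4 and 65.6 CPM against 56.0, 55.0 and 48.5 CPM (log2 fold change -0.31, adjusted p = 0.0281), and all treated libraries were below all controls. Each of PSAT1 and PSPH passed 2 of the 6 leave-one-out fits, and the adjusted p of PSAT1 was 0.0768 after the GC correction.

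Of the 14 serine and folate enzymes tested, 2 were called higher and 1 lower, beside 3.44% and 0.508% of all tested genes. The third was SHMT1, the cytosolic enzyme that moves a carbon from serine to folate, at 15, 15.7 and 20.5 CPM under DMSO and 22.6, 22.1 and 32.0 CPM under AC220 (log2 fold change 0.58, adjusted p = 0.0306). MTHFD2, a mitochondrial enzyme further on in the folate cycle, was read at 340, 334 and 378 CPM against 381, 423 and 439 CPM, with an adjusted p of 0.0526, and of 0.0309 with the block.

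ATF4 is the transcription factor that answers a shortage of amino acids and switches on their synthesis and import. It was read at 1225, 1205 and 1095 CPM under DMSO and at 1037, 1059 and 978 CPM under AC220, with no overlap, a log2 fold change of -0.20 (95% interval -0.35 to -0.04) and an adjusted p of 0.131. ASNS, the asparagine synthetase that ATF4 induces, lay at 459, 465 and 428 CPM against 404, 435 and 428 CPM, inside the 25% bound. Of 19 genes of this response 2 were called, both higher, beside 3.44% of all tested genes called higher. They were the partner factors CEBPG, at 40.7, 37.0 and 44.1 CPM against 48.2, 64.2 and 72.7 CPM, and CEBPB, at 43.8, 41.8 and 52.3 CPM against 52.0, 71.8 and 72.5 CPM, where the lowest treated library of CEBPB fell just below the highest control. CEBPB lost the call after the GC correction (adjusted p = 0.0623). Over the 19 genes the median log2 fold change was -0.11, with 6 values above 0. The block fit and DESeq2 each called 2 of them higher and 1 lower.

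Of 7 well-expressed amino acid transporters, which import these building blocks, 6 lay within the 25% bound. In the full fit and every leave-one-out fit 4 did. The shares of all well-expressed genes were 69.1% and 48.9%. The transporters SLC7A5 and SLC3A2, which pair to exchange large neutral amino acids, lay at 307, 283 and 322 CPM against 280, 296 and 309 CPM and at 285, 283 and 272 CPM against 275, 301 and 281 CPM. Both had intervals inside the 25% bound. Among the 20 cytosolic tRNA synthetases tested, which load amino acids onto tRNA, 4 were called, all lower, beside 0.508% of all tested genes called lower. SARS, for serine, fell from 175, 184 and 164 CPM to 139, 152 and 127 CPM (log2 fold change -0.32), and passed 3 of the 6 leave-one-out fits. AARS, CARS and WARS had log2 fold changes of -0.25, -0.22 and -0.24, where the adjusted p of CARS was 0.0504 after the GC correction, and TARS and EPRS lay inside the 25% bound.

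Because a p over the threshold does not show that a gene stayed level, well-expressed genes were also read against a stated bound. A gene with a mean of at least 50 CPM was counted as within the bound when the whole 95% interval of its log2 fold change lay between -0.32 and 0.32, which is 20% lower to 25% higher. Of 3156 such genes, 2182 lay within (69.1%), and 1544 (48.9%) did so in the full fit and in all 6 leave-one-out fits. Among the same 3156 genes 211 were called (6.69%), and none of these had its whole interval inside the bound. The median half-width of an interval was 0.16 on the log2 scale. With a bound of 1.5-fold 2993 genes lay within, and with a bound of 15% higher and the same fold lower 794.

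Of the genes of cell division, all 6 well-expressed D cyclins, CDKs and CDK inhibitors lay within the bound in the full fit, as did 15 of 17 mitosis genes and 12 of 18 DNA replication genes, beside 69.1% of all such genes. In the full fit and every leave-one-out fit the counts were 3 of 6, 5 of 17 and 8 of 18, beside 48.9% of all such genes. Without AC220 replicate 1 the mitosis count was 9 and that of the D cyclins, CDKs and CDK inhibitors 3, and the latter was also 3 without DMSO replicate 3. CDK4 lay at 205, 224 and 209 CPM against 206, 230 and 211 CPM, and TOP2A, the topoisomerase of mitotic chromosomes, at 1635, 1582 and 1636 CPM against 1689, 1483 and 1548 CPM. MKI67, the proliferation marker Ki-67, lay at 392, 383 and 396 CPM under DMSO and at 348, 348 and 343 CPM under AC220. These groups of MKI67 were tight and apart, yet the log2 fold change of -0.17 (95% interval -0.29 to -0.06) stayed inside the bound. The adjusted p of MKI67 in edgeR's test was 0.0683, and 0.0403 after the GC correction and 0.0444 with median-ratio size factors. With limma-voom it was 0.0488 and with DESeq2 0.00507. In all, 8 alternatives called MKI67 lower and 18 left it uncalled. BUB1B, a kinase of the spindle checkpoint, was the called mitosis gene, at 31.8, 33.4 and 36.0 CPM against 42.6, 42.9 and 40.7 CPM. Its adjusted p of 0.0453 rose to 0.0503 with the block, 0.0673 with median-ratio size factors and 0.0802 after the GC correction.

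The well-expressed members that were not within were CCNA2 and CDK1 in the mitosis list, with log2 fold changes of 0.26 and 0.22 and no call. Of the 29 DNA replication genes tested none was called by edgeR, 8 had an unadjusted p under 0.05, DESeq2 called 2 and the block fit 3. MCM7, a subunit of the replicative helicase, lay at 755, 731 and 632 CPM against 641, 612 and 551 CPM, where DMSO replicate 3 was below AC220 replicate 1. CDKN2A, an inhibitor of CDK4 and CDK6, was called higher at 10.6, 12 and 12.9 CPM against 13.7, 17.6 and 18.8 CPM and passed 2 of the 6 leave-one-out fits.

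Replication-dependent histone genes had the lowest median of the 42 lists, a log2 fold change of -0.34 over 22 tested members. Of these, 3 had a value above 0 and 2 were called, HIST1H4C and HIST1H1C, both lower, beside 0.508% of all tested genes called lower. HIST1H1C, a linker histone, was read at 64.6, 47.0 and 43.7 CPM under DMSO and at 38.6, 34.8 and 36.6 CPM under AC220, with DMSO replicate 1 far above the rest. Without the well-read HIST1H4C most members were low in counts, and HIST2H2AC lay at 22.7, 15.5 and 16.1 CPM against 17.6, 16.3 and 16.0 CPM with overlapping groups. The median of the list was -0.37 with median-ratio size factors and -0.33 after the GC correction.

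Protein synthesis held members on both sides. Of 84 cytosolic ribosomal protein genes tested, 5 were called higher and 2 lower, beside 3.44% and 0.508% of all tested genes. The block fit gave 7 higher and 10 lower. Of the 81 well-expressed ones 61 lay within the 25% bound, and 46 in the full fit and every leave-one-out fit. The shares of all well-expressed genes were 69.1% and 48.9%. RPL34 was read at 1803, 1863 and 1951 CPM under DMSO and at 2195, 2625 and 2669 CPM under AC220 (log2 fold change 0.42, adjusted p = 0.00898), and RPL17 at 1240, 1296 and 1348 CPM against 1483, 1746 and 1744 CPM. Other members of the same ribosome lay elsewhere. RPS29 lay at 6426, 6872 and 6732 CPM against 6750, 7150 and 6779 CPM, inside the bound, and RPL41 at 7648, 7766 and 6333 CPM against 6453, 6559 and 5749 CPM, with overlapping groups, a log2 fold change of -0.21 (95% interval -0.37 to -0.06) and an adjusted p of 0.0979, and of 0.0435 with the block. Pseudogenes of ribosomal proteins share sequence with their parents, so single values of this family are uncertain.

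Of 65 translation factors tested, 8 were called higher and 5 lower, beside 3.44% and 0.508% of all tested genes. EIF4A3, a helicase of the exon junction complex, was read at 114, 124 and 133 CPM against 153, 167 and 184 CPM (log2 fold change 0.44), and EIF3C, a subunit of the initiation factor eIF3, at 453, 452 and 403 CPM against 377, 348 and 332 CPM (log2 fold change -0.31). EIF3C and EIF3CL are near-identical copies with nearly equal counts, so they are 1 observation. EEF1A1, which brings tRNA to the ribosome, was read at 4324, 4280 and 5582 CPM against 6224, 7418 and 7715 CPM, a log2 fold change of 0.59 with a wide interval of 0.23 to 0.95 and an adjusted p of 0.0703. EEF2, which moves the ribosome along, lay at 3359, 3458 and 3048 CPM against 3112, 3444 and 2842 CPM, inside the bound.

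NPM1, the nucleolar chaperone that is mutant in this line, lay at 2279, 2322 and 2292 CPM under DMSO and at 2258, 2321 and 2297 CPM under AC220, and its interval on the log2 scale was -0.12 to 0.11. Of the 17 well-expressed MYC and nucleolar genes 14 lay within the 25% bound, NCL among them. In the full fit and every leave-one-out fit 12 did. FBL, the methyltransferase of ribosomal RNA, was called lower at 818, 771 and 721 CPM against 653, 642 and 622 CPM. Of 24 well-expressed chaperones 19 lay within, including HSP90AA1, HSP90AB1 and CCT5, and 15 in the full fit and every leave-one-out fit. The shares of all well-expressed genes were 69.1% and 48.9%. CCT4 and HSPE1 were called higher (log2 fold changes 0.32 and 0.34) and DNAJB1 and HSF1 lower (-0.40 and -0.30). HSF1 had an adjusted p of 0.0821 after the GC correction.

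The proteasome, which degrades tagged proteins, had 5 of 37 tested subunits called higher and 1 lower, beside 3.44% and 0.508% of all tested genes. PSMA1 was read at 82.5, 87.2 and 96.9 CPM against 111, 123 and 126 CPM, while PSMC5, of the regulatory cap, fell from 269, 264 and 221 CPM to 213, 209 and 183 CPM. PSMA7, in the same ring as PSMA1, lay at 742, 725 and 683 CPM against 738, 701 and 697 CPM, inside the bound. Of the 32 well-expressed subunits 19 lay within, and 12 without AC220 replicate 1.

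The respiratory chain is built from transcripts of the mitochondrial and of the nuclear genome. Of the 13 transcripts of the mitochondrial genome 11 lay within the 25% bound in the full fit and in every leave-one-out fit, and none had an unadjusted p under 0.05 in the edgeR test or an adjusted p under 0.05 with DESeq2. MT-ND1 lay at 12538, 12476 and 12488 CPM against 11838, 13686 and 13655 CPM, and MT-CO3 at 20278, 19150 and 17769 CPM against 17981, 17553 and 17590 CPM. The nuclear genes of the respiratory chain had 8 of 80 called, all higher, 10 higher and 4 lower with the block, beside 3.95% of all tested genes called and 3.44% called higher. Of its 73 well-expressed members 47 lay within the bound. NDUFC2, of complex I, was read at 89.2, 91.4 and 94.3 CPM against 116, 125 and 132 CPM (log2 fold change 0.44, adjusted p = 0.00671), and COX6C, of cytochrome c oxidase, at 527, 542 and 550 CPM against 618, 657 and 672 CPM. UQCRB, of complex III, lay at 1221, 1221 and 1177 CPM against 1193, 1213 and 1161 CPM, inside the bound.

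Mitochondrial ribosomal proteins, which build the ribosome of that genome, had 7 of 76 called higher and 1 lower. The shares of all tested genes were 3.44% and 0.508%. Of 43 well-expressed members 25 lay within the bound, 16 without AC220 replicate 1 and 15 without DMSO replicate 3. MRPS36 was read at 22.6, 24.3 and 25.8 CPM against 32.1, 32.3 and 36.3 CPM, and MRPS26 fell from 82.9, 74.1 and 72.4 CPM to 62.5, 60.7 and 53.1 CPM. MRPS27 lay inside the bound. The share within was 58.1% for this list, 64.4% for the nuclear respiratory chain and 84.6% for the mitochondrial genome, beside 69.1% of all well-expressed genes, and no difference between these lists was tested.

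In central metabolism, 12 of 14 well-expressed glycolysis genes lay within the 25% bound, beside 69.1% of all such genes. The count was 8 without DMSO replicate 3 and 9 without AC220 replicate 1. In the full fit and every leave-one-out fit it was 8, beside 48.9% of all such genes. None of the 23 tested was called by edgeR (3 at an unadjusted p under 0.05, 1 called by DESeq2). LDHB lay at 768, 776 and 780 CPM against 832, 777 and 793 CPM. GAPDH, often taken as a reference gene, was read at 3005, 2859 and 2654 CPM under DMSO and at 2534, 2412 and 2283 CPM under AC220, without overlap, a log2 fold change of -0.24 (95% interval -0.39 to -0.08) and an adjusted p of 0.0708, and of 0.0441 with the block. In the TCA cycle FH, fumarate hydratase, rose from 87.4, 92.9 and 98.5 CPM to 112, 134 and 138 CPM (log2 fold change 0.46, adjusted p = 0.00587), and GOT2 fell with a log2 fold change of -0.29. MDH2, SDHA and SUCLG1 of the same cycle lay inside the bound.

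Nucleotide synthesis had 2 of 20 called, both higher, beside 3.44% of all tested genes called higher. They were GART of the purine route (log2 fold change 0.34) and the salvage enzyme HPRT1 (0.38), while IMPDH2 and APRT lay inside the bound. Sterol synthesis had 1 of 24 called, beside 3.95% of all tested genes called. It was IDI1, an isomerase of the mevalonate route, at 9.72, 9.73 and 15.3 CPM against 19.1, 19.4 and 24.2 CPM (log2 fold change 0.85, adjusted p = 0.00858). FASN and FADS1 lay inside the bound. The rise of IDI1 was in a gene with a high DMSO replicate 3, and it passed 3 of the 6 leave-one-out fits.

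Among the lists with at least 5 well-expressed members, the smallest shares within the bound were those of monocyte and granulocyte genes (2 of 8, and 1 without DMSO replicate 3), FOXO targets (2 of 6), ATF4 genes (4 of 12) and lysosome genes. The lysosome list had 8 of 20 well-expressed members within, 5 of 42 tested called higher and 1 lower. The shares of all tested genes called higher and lower were 3.44% and 0.508%. ATP6V1C2, a subunit of the proton pump, was read at 222, 225 and 261 CPM against 291, 289 and 304 CPM, and GRN, the precursor of granulins, fell from 326, 333 and 305 CPM to 260, 247 and 242 CPM (log2 fold change -0.37, adjusted p = 0.0206). MAP1LC3B and GABARAPL2, which coat autophagosomes, were called higher with log2 fold changes of 0.45 and 0.30, against GABARAP inside the bound. Of the other pump subunits named, ATP6V0C lay inside the bound and ATP6V1B2 was called higher. After the GC correction the adjusted p was 0.0787 for ATP6V1B2 and 0.0534 for GABARAPL2.

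Targets of FOXO, the factors that PI3K-AKT signalling holds in the cytoplasm, had 2 of 19 called, both higher, beside 3.95% of all tested genes, and 1 with the block. CITED2, a transcriptional co-regulator, was read at 35.5, 34.9 and 49.0 CPM under DMSO and at 68.7, 95.4 and 118 CPM under AC220, a log2 fold change of 1.24 (95% interval 0.63 to 1.86) with an adjusted p of 0.0435, and of 0.0664 with the block. IRS2, the adaptor of insulin signalling, was read at 176, 186 and 192 CPM against 235, 260 and 324 CPM (log2 fold change 0.57), with an adjusted p of 0.018, and of 0.0514 after the GC correction. FOXO3 itself lay at 85.6, 80.7 and 79.9 CPM against 80.6, 74.8 and 75.6 CPM, inside the bound. Of 15 BCL2 family genes 1 was called, BCL2L11, which promotes cell death, at 15.7, 16.4 and 19.0 CPM against 21.7, 24.9 and 30.2 CPM (log2 fold change 0.59, adjusted p = 0.018).

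Of 66 spliceosome genes 4 were called, all higher, and 12 with the block, all higher, with 38 of 58 well-expressed members within. Over all tested genes 3.95% were called and 3.44% were called higher. SF3B4, of the U2 particle, was read at 130, 117 and 145 CPM against 161, 186 and 188 CPM (log2 fold change 0.45, adjusted p = 0.00444), and HNRNPA3 at 463, 445 and 522 CPM against 563, 583 and 665 CPM. HNRNPK lay inside the bound. Of 14 genes of nuclear export and the THO complex 3 were called higher, ENY2, THOC7 and THOC3, and the block fit and DESeq2 each gave 3 higher and 1 lower. THOC3 had the widest of these, 7.23, 8.81 and 12.8 CPM against 16.3, 22.8 and 43.9 CPM (log2 fold change 1.53, adjusted p = 0.0494), with AC220 replicate 3 far above the others and an adjusted p of 0.057 after the GC correction. THOC2, in the same complex, lay at 423, 414 and 412 CPM against 404, 419 and 433 CPM, inside the bound.

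Interferon-stimulated genes gave 2 lower calls among 28, beside 0.508% of all tested genes called lower. MX1, an antiviral GTPase, was read at 66.7, 74.8 and 65.3 CPM under DMSO and at 45.0, 51.0 and 52.8 CPM under AC220 (log2 fold change -0.47, adjusted p = 0.00808). IFITM3 was read at 165, 191 and 183 CPM against 150, 143 and 143 CPM, with an adjusted p of 0.028, and of 0.0602 after the GC correction. Of 14 MHC class I and peptide loading genes tested 1 was called lower, TAPBP (log2 fold change -0.32), beside 0.508% of all tested genes. The median log2 fold change of that list was 0.13, with 10 of 14 values above 0. The block fit gave 2 higher and 1 lower, and HLA-B lay inside the bound. Of 10 class II genes tested 1 was called lower, CIITA, the master regulator of class II (-0.37), and 3 values were above 0.

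Among genes of cell identity, 4 of 5 well-expressed members of the HOX and NPM1-mutant programme lay within the bound. In the full fit and every leave-one-out fit 3 of 5 did. The shares of all well-expressed genes were 69.1% and 48.9%. HOXA9 and HOXA10, the homeobox genes that mutant NPM1 cells keep on, lay at 61.5, 69.8 and 69.5 CPM against 71.9, 73.9 and 72.3 CPM and at 247, 233 and 260 CPM against 258, 257 and 281 CPM, both inside the bound. MEIS1, their partner, lay at 22.1, 22.1 and 21.6 CPM against 23.5, 22.0 and 24.9 CPM, under the level set for the bound. Of 17 genes of that programme none was called by edgeR, DESeq2 or limma-voom, and 1 had an unadjusted p under 0.05. CEBPA, the myeloid master regulator, lay inside the bound at 301, 308 and 288 CPM against 305, 314 and 335 CPM, as did the granule proteases CTSG and ELANE. Of 11 well-expressed myeloid transcription factors, CEBPA among them, 5 lay within the bound, beside 69.1% of all well-expressed genes. Of the 19 tested 2 were called higher, beside 3.44% of all tested genes, and the block fit gave 4 higher and 1 lower. CD33, a surface antigen, lay at 51.5, 51.1 and 41.6 CPM against 39.9, 45.0 and 37.5 CPM, with DMSO replicate 3 among the treated libraries.

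LYZ, lysozyme of monocytes and granulocytes, was the called gene among 20 of that kind, beside 3.95% of all tested genes called. It rose from 135, 126 and 145 CPM to 174, 191 and 192 CPM (log2 fold change 0.46, adjusted p = 0.0415). MNDA lay at 143, 140 and 141 CPM against 163, 166 and 172 CPM with an adjusted p of 0.0533. IL1B, an inflammatory cytokine, was called higher at 15.9, 14.2 and 17.3 CPM against 22.2, 24.8 and 26.2 CPM (log2 fold change 0.63), while NFKBIA lay inside the bound. In bulk RNA a change in the share of cells of a kind and a change in RNA per cell cannot be told apart.

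**Figure D4:**
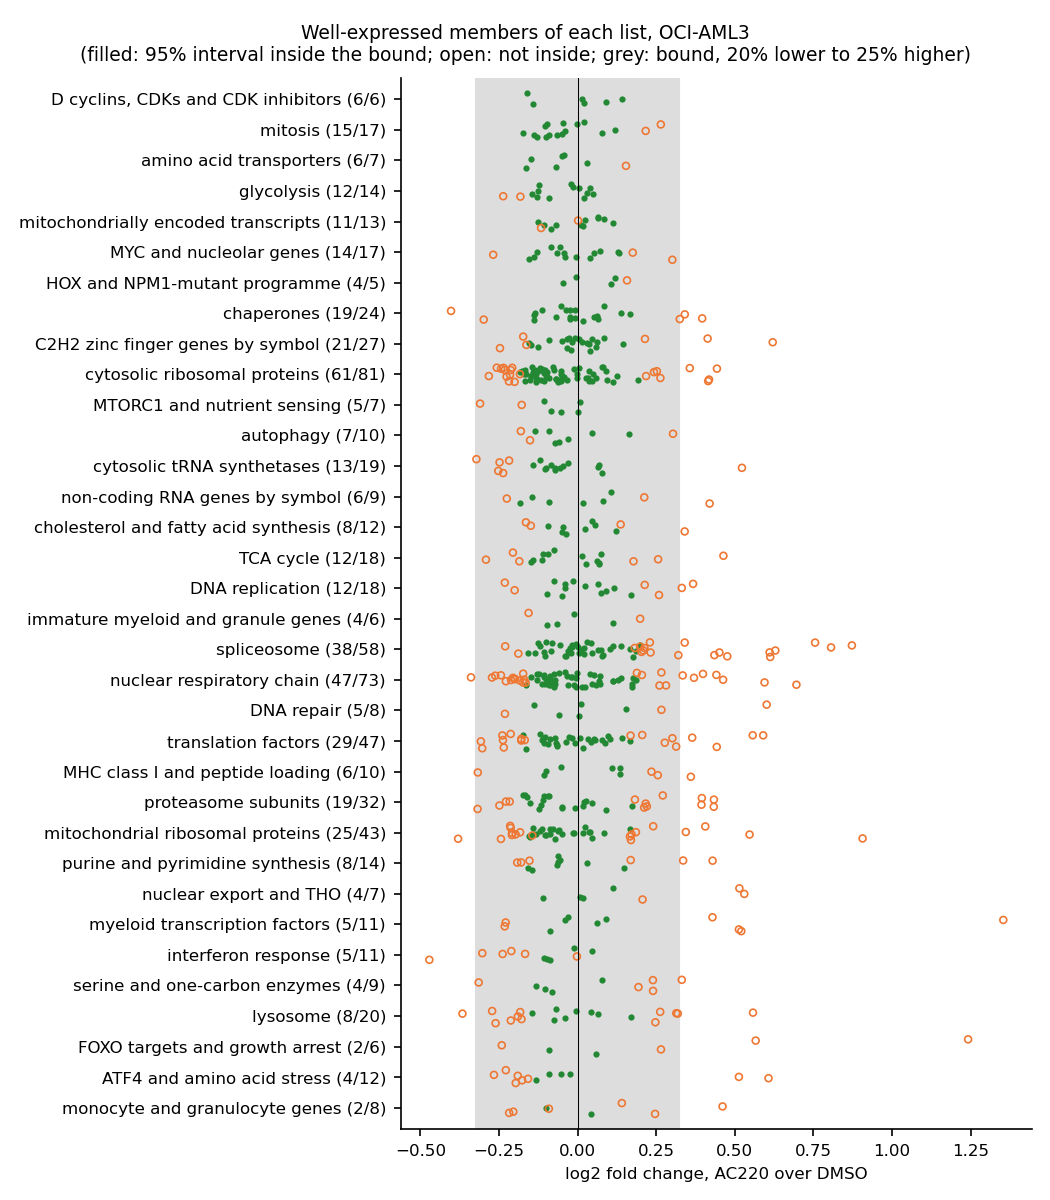
Log2 fold change of AC220 over DMSO (horizontal axis) of each well-expressed member (at least 50 CPM) of the lists with at least 5 such members, 1 row a list, filled green where the 95% interval lies inside the 25% bound, open orange where it does not, and grey for the bound. Rows are ordered by the share within, from 6 of 6 for D cyclins, CDKs and CDK inhibitors at the top to 2 of 8 for monocyte and granulocyte genes at the bottom, beside 69.1% of all well-expressed genes.

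Against MV4-11, the response differed in 5792 genes (46.7%) by the test of the difference itself, and in MV4-11 alone 7228 genes (58.3%) were called. The same 3156 well-expressed genes held 743 within the 25% bound in MV4-11 and 2182 in OCI-AML3. These genes were chosen by their level in OCI-AML3 alone. A gene low in MV4-11 can miss the bound there through a wide interval, so the 2 counts are not a like comparison. Enzymes of serine and asparagine synthesis show the contrast between the lines. PHGDH had a log2 fold change of -5.24 in MV4-11 and -0.13 in OCI-AML3, and PSAT1 of -4.22 and 0.24. PSPH had -2.29 in MV4-11 and -0.31 in OCI-AML3, and the asparagine synthetase ASNS had -3.74 and -0.09. DUSP6 had -3.97 in MV4-11 and 0.54 in OCI-AML3, and MKI67 had -2.87 and -0.17, and each of these differences passed the test. Of the 9 stable genes 8 differed between the lines. These 9 genes were selected on their OCI-AML3 values, which also enter the test of the difference, so this count is a description only. HIST1H4C was lower in both, by -1.76 in MV4-11 and -0.54 in OCI-AML3, whereas COX17 had -0.97 in MV4-11 and 0.51 in OCI-AML3.

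For other genes the difference between the lines did not pass this test. ARNT had a log2 fold change of 0.91 in MV4-11 and 0.64 in OCI-AML3 (adjusted p of the difference 0.161), and BCL2L11 had 0.70 and 0.59 (0.657). FLT3 had 0.74 in MV4-11 and 0.97 in OCI-AML3 (0.683), at mean levels of 218 CPM under DMSO in MV4-11 and 11.9 CPM in OCI-AML3.

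**Figure D5:**
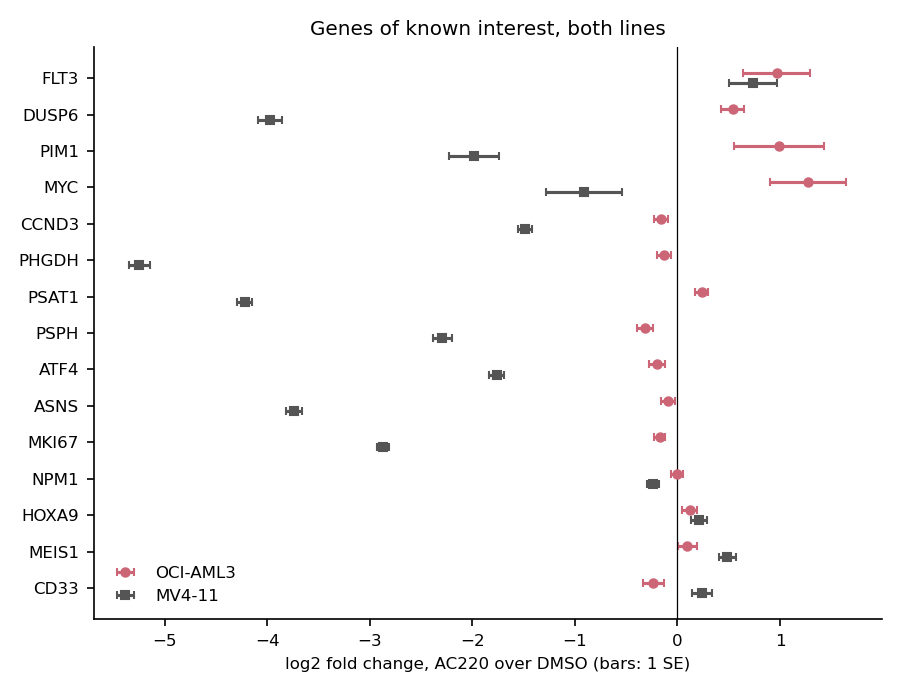
Log2 fold change of AC220 over DMSO (horizontal axis, bars 1 SE) of genes of known interest in OCI-AML3 (red circles) and MV4-11 (grey squares). PHGDH, PSAT1, ASNS, DUSP6 and MKI67 lie between -5.24 and -2.87 in MV4-11 and between -0.17 and 0.54 in OCI-AML3.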

How the data were processed

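Total RNA of 12 cell line samples was read with a 3′ mRNA kit, per the labels' protocols. Raw counts per gene were deposited by the authors. Per the submitters' processing notes, the tools were HISAT2 2.0.4, featureCounts (Subread 2.0.0), cutadapt 1.9.1, bcl2fastq 2.17.1.14, FastQC 0.11.6, limma 3.42.2 and R 3.6.1, with genome build hg19, and there is no statement of strand or of molecular identifiers, so counting error is a lower limit of the error. A second deposited table held the authors' normalised log2 values and served as an alternative.

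The counts were fitted in R 4.3.3 with edgeR 4.0.16 (filterByExpr on the 4 groups, TMM scaling, robust quasi-likelihood fit, 12 libraries, 8 residual degrees of freedom). P-values were adjusted after Benjamini and Hochberg over 12392 genes, with a threshold of 0.05. The common biological coefficient of variation was 8.28%. The fit was repeated without each library, and the steps were tested on simulated data. The simulated counts were drawn independently around group means, without the GC-linked axis of these libraries, so that test does not cover its effect on the calls. The row with no gene symbol, at most 0.00427% of counts, stayed out, and 13 symbols that had turned into dates were not named. Of 19504 rows 19127 were found in the gene name table. Alternatives were DESeq2 1.42.0, limma 3.58.1 (voom, and limma on the deposited values), other filters and size factors, and the 6 libraries alone. A lowess correction for the GC content of the longest transcript, for 99.2% of tested genes, and pairs of libraries left out were chosen after seeing the data.

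Same-numbered AC220 and DMSO libraries deviated together: the correlations were 0.333, 0.210 and 0.516 over 5886 genes of at least 20 CPM and 0.116, 0.0574 and 0.242 over all tested genes. AC220 replicate 1 also correlated with DMSO replicate 2 (0.220 and 0.0910), above the pair numbered 2. The labels state no pairing, so the pairing is a hint from the data, and values with a block on the number are given where it changes a call. Replicates differed from each other by 2.79 to 8.65 times the counting noise (chi-square per degree of freedom), so none was counted as a repeat of another.

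Genes were named by rule: FLT3, up to 15 genes a direction called in every leave-one-out fit, up to 4 called and up to 3 abundant members of each of 42 lists, 16 genes of known interest and the 10 most abundant genes. A few genes that the rule names are not reported here. The comparison, lists and tests were chosen with earlier results of these data known.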

Additional observations from a re-analysis of the deposited data

Results flagged for a closer look

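For the 9 stable genes and 16 genes of known interest the difference of the log2 fold change between the lines, MV4-11 minus OCI-AML3, was looked at one by one, and 22 of them passed an adjusted p of 0.05 in edgeR's quasi-likelihood test of the difference. Among all 220 named genes 176 did, beside 46.7% of all tested genes. Many of these genes were selected on their calls or level in OCI-AML3. The OCI-AML3 values also enter the test of the difference, so these counts are a description only. The difference was -5.11 for PHGDH, -4.46 for PSAT1 and -1.98 for PSPH, the enzymes of serine synthesis. It was -1.57 for ATF4 and -3.65 for ASNS. For the signalling genes it was -4.51 for DUSP6, -2.18 for MYC and -2.97 for PIM1, and all 3 had values above 0 in OCI-AML3 and below 0 in MV4-11. For the cycle genes it was -1.35 for CCND2, -1.33 for CCND3 and -2.70 for MKI67, and it was -1.22 for HIST1H4C. It was -0.23 for NPM1, 0.39 for MEIS1 and 0.47 for CD33. Among the stable risers it was -0.32 for SNX1, -1.39 for ZNF706, -1.12 for NUP153, -0.45 for AAMP, -1.48 for COX17, -1.49 for MTLN and 0.67 for TNFAIP2. ZNF706, NUP153, COX17 and MTLN had values below 0 in MV4-11, and TNFAIP2 was higher in both lines.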

How the results depend on the processing

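Leaving out 1 library gave between 13 and 1136 called genes, against 489 with all. Leaving out both OCI-AML3 libraries numbered 1, 2 or 3, chosen after seeing the data, gave 312, 0 and 243. The count was 836 with no filter on low counts, 813 with DESeq2, 122 with limma on the deposited values and 47 at an adjusted p of 0.01. With the replicate number as a block it was 764, with the GC correction and the block 813, and with the 6 libraries alone and the block 2036. The calls that the block changed among the named genes are given with them.

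Genes called in all leave-one-out fits numbered 9, against 52 with DESeq2, 73 with the 6 libraries alone, 1 with median-ratio size factors, 5 with the GC correction and 0 when the fit without both libraries numbered 2 was also required. Well-expressed genes within the bound numbered 2182 of 3156 (69.1%), against 794 (25.2%) with a bound of 15% higher, and between 1764 and 2306 with 1 library left out. Another minimum level also changes how many genes are counted. At a minimum of 20 CPM 3375 of 5886 lay within (57.3%), and at 100 CPM 1240 of 1650 (75.2%). The difference between the lines was called in 4920 to 6130 genes over its alternatives, the highest without MV4-11 AC220 replicate 1.

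Over 26 named genes and 673 alternative values, 604 kept direction and side of the threshold, 31 lost a call, 24 gained one and 14 changed sign. The sign changes were in CCND2 (0.0159) and NPM1 (-0.00375), both near 0. Leaving out 1 library moved CCND2 to between -0.35 and 0.20 and NPM1 to between -0.0358 and 0.00649. CCND2 had -0.00935 without both libraries numbered 2, -0.25 without both numbered 3, -0.0124 with median-ratio size factors, -0.0126 with DESeq2, -0.00231 with limma-voom, -0.0245 with the GC correction and -0.0131 with that and the block. NPM1 had 0.000611 without both numbered 1 and 0.0150 with the deposited values. The cause of these changes was not tested. Depth limits genes of few counts: CCND2 lay between 0.304 and 0.647 CPM.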
